A study of Mus musculus with 6 samples.

Results

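The 9 genes described here encode 6 matrix metalloproteinases (Mmp8, Mmp9, Mmp12, Mmp13, Mmp14 and Mmp19) and 3 of their tissue inhibitors (Timp1, Timp2 and Timp3). They were chosen by name, with earlier results of these data known, to be followed through the RNA-seq of bone marrow-derived macrophages (BMDMs). They make up 9 of the 54446 genes in the count table and do not cover either family in full. BMDMs were grown from the bone marrow of male BALB/c mice aged 6 to 8 weeks in 20% L929-conditioned medium for 7 days. M0 cells stayed unpolarized, M1 cells received 20 ng/mL of IFN-γ with 50 ng/mL of LPS, and M2 cells received 20 ng/mL of IL4, both for 24 hours. Regorafenib, an oral multikinase inhibitor used in liver cancer, was given at 1 µM, starting 1 hour before polarization, and DMSO-treated cells served as controls. For M0 cells, which were not polarized, the times of treatment and harvest are not given in the sources used here. Each of the 6 conditions was sequenced as 1 library, so that no comparison of a pair of libraries has a replicate check, and whether the cells of a condition came from 1 mouse or several is not given in the sources used here.

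Matrix metalloproteinases are zinc-dependent endopeptidases that cleave collagens, elastin, gelatin and many cytokines and receptors outside the cell. Most are secreted as inactive precursors and are held back, after activation, by TIMPs, which bind their catalytic site. Macrophages are a known source of both in inflamed tissue and in tumors, where the balance between protease and inhibitor affects matrix turnover. Transcript counts, as given here, measure neither secretion nor enzyme activity.

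The libraries held between 25359309 and 34898342 counts. The labelled cell type and the M1 state were checked with marker genes. The 6 macrophage markers (such as Adgre1, Cd68 and Csf1r) had at least 10 counts in all 6 libraries, with a summed level between 21580 and 48190 CPM (counts scaled to library size). The 4 M1 markers (Nos2, Il12b, Cxcl9 and Il6) summed to 18340 CPM in M1 control cells and 12620 CPM in M1 cells with regorafenib, and to no more than 1.97 CPM in the M0 and M2 libraries. Within M1, Nos2 was lower with regorafenib (15890 and 9196 CPM) and the other 3 were higher, of which Il12b (393 and 1113 CPM) was called.

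CPM used library sizes after TMM scaling, and log2 ratios compare such scaled counts. The brackets after a ratio hold its 95% interval (exact binomial, conditional on the summed count), which reflects counting error and no spread between samples. A gene was called when 1 library of the pair had at least 10 counts, the ratio was at least 2-fold and the interval left out 0. In bulk RNA, a smaller share of cells that express a gene cannot be told apart from less RNA per cell.

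The members fall into different neighborhoods of the genome (GRCm38). Mmp13 (ENSMUSG00000050578.10, chromosome 9, 7272514 to 7283331), Mmp12 (ENSMUSG00000049723.14, chromosome 9, 7344381 to 7369499) and Mmp8 (ENSMUSG00000005800.3, chromosome 9, 7558456 to 7568485) lie on the plus strand of a cluster of 10 Mmp genes that spans 427072 bases. The other members are single genes, among them Mmp14 (ENSMUSG00000000957.11, chromosome 14, 54431612 to 54445364), Mmp9 (ENSMUSG00000017737.2, chromosome 2, 164940780 to 164955850), Timp1 (ENSMUSG00000001131.11, chromosome X, 20870166 to 20874735) and Timp2 (ENSMUSG00000017466.9, chromosome 11, 118301069 to 118355740). Mmp19 (ENSMUSG00000025355.7, 128790910 to 128800824) and Timp3 (ENSMUSG00000020044.13, 86300372 to 86349506) are both on chromosome 10.

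The promoters of Mmp13, Mmp12, Mmp8 and Mmp14 are shown because the first pair was lower and the last was higher with regorafenib in every state, while Mmp8, which lies in the same cluster as Mmp13 and Mmp12, differed in direction between states. Each is the 250 bases before an annotated start on the plus strand, from RefSeq on GRCm38.p6, and the capitals mark matches to the motifs searched. The Mmp12 window is that of the downstream of 2 annotated starts and lies inside an intron of the longer transcript.

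Mmp13, chr9:7272264-7272513: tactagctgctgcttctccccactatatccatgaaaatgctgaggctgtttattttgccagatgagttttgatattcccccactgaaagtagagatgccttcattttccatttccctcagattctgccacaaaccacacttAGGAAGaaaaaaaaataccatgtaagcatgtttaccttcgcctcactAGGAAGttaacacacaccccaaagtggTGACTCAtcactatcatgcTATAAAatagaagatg
Mmp12, chr9:7347124-7347373: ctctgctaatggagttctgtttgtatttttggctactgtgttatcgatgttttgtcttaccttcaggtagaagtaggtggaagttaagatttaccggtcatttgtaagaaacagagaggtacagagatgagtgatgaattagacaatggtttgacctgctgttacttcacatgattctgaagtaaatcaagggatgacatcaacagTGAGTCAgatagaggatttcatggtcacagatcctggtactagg
Mmp8, chr9:7558179-7558428: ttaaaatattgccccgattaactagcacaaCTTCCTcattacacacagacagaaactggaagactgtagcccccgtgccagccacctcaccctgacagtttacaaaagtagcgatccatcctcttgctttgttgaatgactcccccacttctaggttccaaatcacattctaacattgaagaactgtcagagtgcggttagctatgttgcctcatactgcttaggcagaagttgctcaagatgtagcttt
Mmp14, chr14:54431348-54431597: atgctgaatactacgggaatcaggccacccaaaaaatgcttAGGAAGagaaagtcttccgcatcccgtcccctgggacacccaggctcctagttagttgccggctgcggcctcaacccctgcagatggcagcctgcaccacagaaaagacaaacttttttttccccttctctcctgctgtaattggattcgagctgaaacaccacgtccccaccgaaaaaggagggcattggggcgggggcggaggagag

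The 7 motifs were searched on both strands: AP-1 (TGACTCA), the cAMP response element (TGACGTCA) and its half-site (TGACG), PEA3/ETS (AGGAAG), GAS (TTCNNNGAA), the STAT6 site and the TATA box (TATAAA). The half-site is contained in the full cAMP response element. The Mmp13 window held an AP-1 match at −35 to −29 from the start, PEA3/ETS matches at −109 and −62, and TATAAA at −16 (first bases of each). AP-1 is the binding site of Fos and Jun proteins, and it was present in 4.46% of all 32851 promoters of the same length. Of the 2 windows of Mmp12, that of the downstream start held AP-1 on the other strand at −44 to −38. The window of the upstream start (chromosome 9, 7344147 to 7344396) held no AP-1 match and 1 PEA3/ETS match, from −87 on the other strand. PEA3/ETS, present in 29.5% of all promoters, was matched once each in Mmp8 (from −220, other strand) and Mmp14 (from −209). Neither AP-1 nor the full cAMP response element was matched in these windows of Mmp8 and Mmp14. Of the inhibitors, Timp1 held PEA3/ETS at −175 and −99 and a half-site at −84, which 17.8% of promoters hold, and Timp3 held PEA3/ETS at −204. No motif was matched in the Timp2 window, and GAS (7.02% of all promoters) and STAT6 (5.85%) were matched in none of the 8 windows of the 7 members with a promoter sequence. A match describes letters in a window and not a bound factor.

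**Figure D1:**
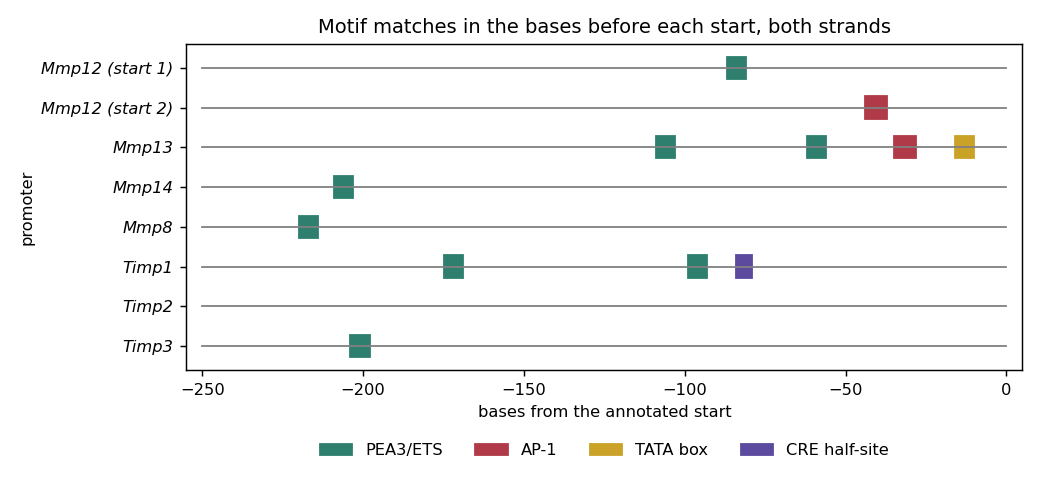
Positions of motif matches on both strands in the 250 bases before each annotated start, for 8 promoters of 7 members, with distance from the start in bases on the x axis. AP-1 appears in the windows of Mmp13 and of the downstream start of Mmp12 only.

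The members were at different levels in unpolarized cells. Per kilobase of exon, counted over all annotated exons of a gene, Timp2 was the highest member in M0 control cells, at 109 CPM per kb. Mmp12 followed at 57.5 and Mmp8 at 10.6 CPM per kb. Mmp14, Mmp9 and Timp3 were each below 0.2 CPM per kb there. The same pair of genes, Timp2 and Mmp12, led in both M0 libraries and in both M2 libraries. In both M1 libraries Mmp12, Mmp13 and Mmp14 were the 3 highest members, and Timp2 was in place 7 in control cells and 6 with regorafenib. Of the 48 pairs of neighbors in these orders within a library, 9 had a counting interval that held 0, among them Mmp13 and Mmp14 in M1 cells with regorafenib (111 and 109.5 CPM per kb) and Mmp9 and Timp2 in M1 control cells (5.57 and 5.36 CPM per kb).

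**Figure D2:**
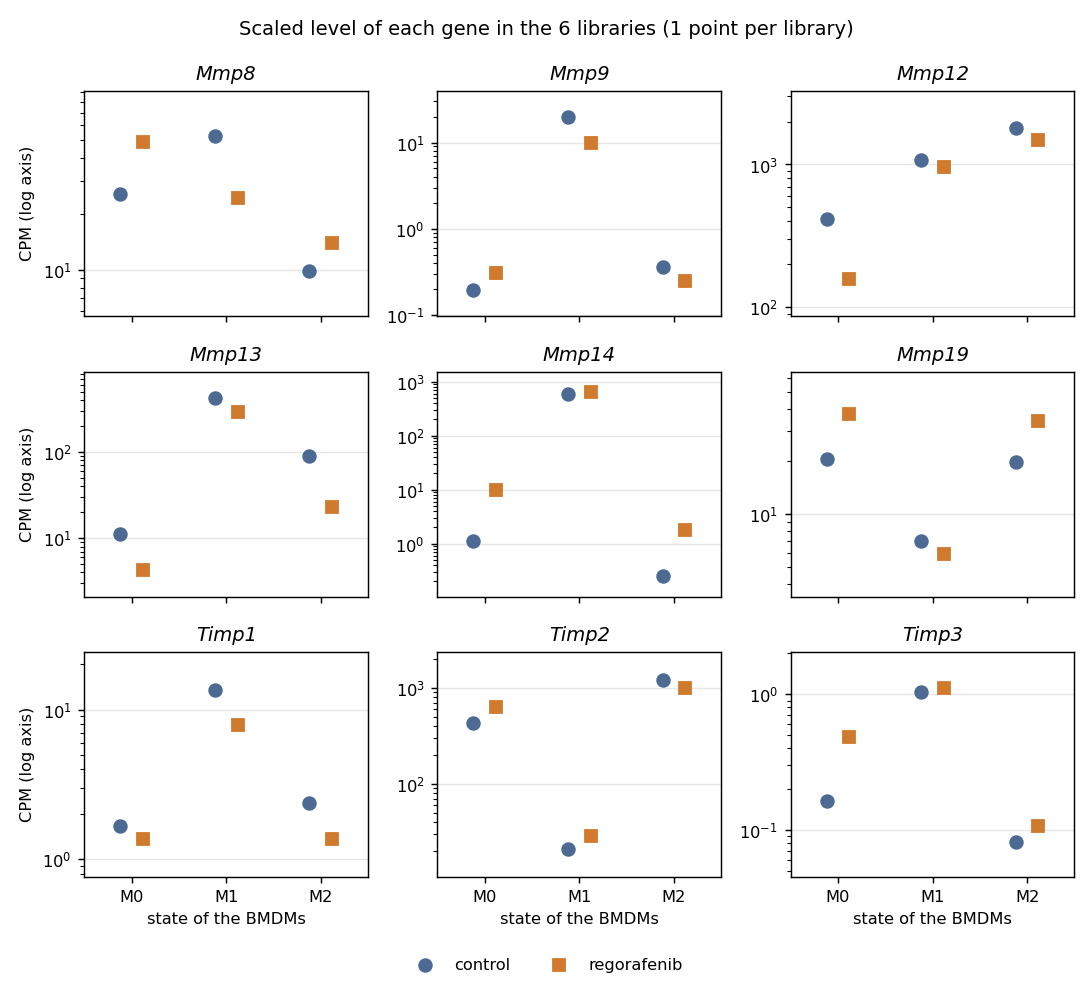
CPM of each of the 9 genes (log y axis, scale set per gene) in M0, M1 and M2 BMDMs, with circles for control and squares for regorafenib, 1 point per library. Mmp14 spans 0.247 to 653 CPM, and Mmp13 is lower with regorafenib than without it in all 3 states.

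Summed over the 6 metalloproteinases, the level was 78.4 CPM per kb in M0, 437 in M1 and 294 in M2 control cells. Summed over the 3 inhibitors, it was 111 CPM per kb for M0, 20.7 for M1 and 309.8 for M2 control cells. The ratio of the sums was 0.706 for M0, 21.2 for M1 and 0.948 for M2 control cells. With regorafenib the ratio was 0.342, 22.5 and 0.9, respectively, so that as a fold the control and regorafenib libraries differed most in M0. These sums are led by few genes, and they depend on the lengths used. Each length covers all annotated exons of a gene, 7237 bases for Mmp12 and 3896 for Timp2. The length of the transcripts expressed here was not measured. In M2 control cells Mmp12 had more counts than Timp2 (66151 and 43676), although the Mmp12 level per kb was the lower. Timp2 made up between 98.3% and 99.4% of the inhibitor sum in M0 and M2, while Timp1 was the largest part in M1 (73.5% in control cells and 54.0% with regorafenib). Mmp12 made up 73.4% of the metalloproteinase sum in M0 control cells, 39.0% in M0 cells with regorafenib, and 85.3% and 89.3% in M2 cells without and with regorafenib.

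**Figure D3:**
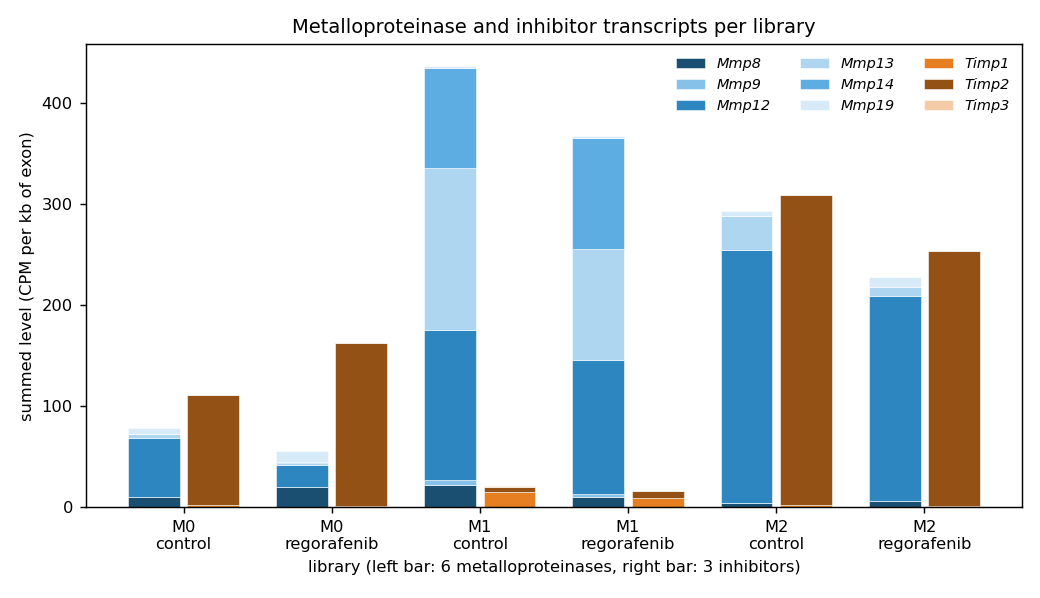
Stacked bars of CPM per kilobase of exon in each library, with the 6 metalloproteinases in the left bar and the 3 inhibitors in the right bar of each pair. Lengths cover all annotated exons of each gene. The metalloproteinase bar is the taller of the pair in both M1 libraries and the shorter in the M0 and M2 libraries.

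To describe the members across polarization, M1 and M2 control cells were each compared with M0 control cells. All 9 members were called between M1 and M0 (7 higher and 2 lower in M1), beside 35.4% of the 14168 genes tested (16.7% higher and 18.7% lower). Between M2 and M0, 3 members were called higher and 2 lower of 8 tested, beside 3.8% and 6.98% of all 13830 genes tested (10.8% in either direction). The median log2 ratio of the members was 2.68 in M1 and 0.69 in M2, and that of all genes tested was −0.05 and 0.01. Both comparisons share the M0 control library. The direct comparison of M1 with M2 control cells called 6 members higher and 2 lower in M1, beside 17.2% and 18.8% of 14311 genes (36.0% in either direction). The scaling bears on the M1 comparisons: scaling by total counts shifted every log2 ratio of M1 to M0 by −0.44 in control cells and by −0.41 with regorafenib, and that of M1 to M2 by −0.35. With it, 29.4% of the called genes were higher in M1 than in M0 against 47.2% with TMM (27.5% against 43.9% with regorafenib, and 33.6% against 47.8% for M1 to M2). Among members, Mmp8 (log2 ratio 0.60) and Mmp12 (0.93) in control cells and Timp3 with regorafenib (0.79) were then no longer called between M1 and M0, which left 7 and 8 called members, and Mmp12 was then called lower in M1 than in M2, which made 9 called members there.

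Mmp14, a membrane-anchored collagenase that also activates proMmp2, had the widest range. It was at 35 counts in M0 and 9 counts in M2 control cells, and at 15213 counts in M1 control cells. The CPM were 1.14, 0.247 and 589. M1 cells had 517-fold the level of M0 cells (log2 ratio 9.01 [8.54, 9.54]), and M2 cells had 4.62-fold less than M0 cells (−2.21 [−3.45, −1.12]). The low M0 and M2 levels were thus both far from the M1 level, and the M2 value rests on 9 counts. With 1 CPM added to both values, the ratio of M1 to M0 was 8.11, and that of M2 to M0 was −0.78 and was not called.

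Mmp13, an interstitial collagenase, was at 345 counts in M0, 11080 in M1 and 3268 in M2 control cells. It was higher in both polarized states, by 38.2-fold in M1 (log2 ratio 5.26 [5.10, 5.41]) and by 7.97-fold in M2 (2.995 [2.83, 3.16]). Mmp12, the macrophage elastase, was also higher in both, with 12787 counts in M0, 27787 in M1 and 66151 in M2. Its order differed from that of Mmp13, since M2 was highest for Mmp12 (4.35-fold over M0, 2.12 [2.10, 2.15]) and M1 was highest for Mmp13. M1 cells had 2.58-fold the Mmp12 level of M0 cells (1.37 [1.34, 1.40]), a difference that was below 2-fold when scaled by total counts.

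Mmp9, gelatinase B, was low outside M1. There were 6 counts in M0 and 13 in M2 control cells, and 509 in M1 control cells (101.0-fold over M0, log2 ratio 6.66 [5.52, 8.11], and 4.11 with 1 CPM added to both values). The M2 and M0 libraries did not differ beyond counting error (0.87 [−0.63, 2.55]). Mmp8, the neutrophil collagenase, was at 787 counts in M0, 1359 in M1 and 358 in M2, so that M2 was lowest. The log2 ratio to M0 was 1.04 [0.91, 1.17] in M1 and −1.39 [−1.57, −1.20] in M2. Mmp19, which cleaves basement membrane proteins, went the other way from the metalloproteinases that were higher in M1, with 631 counts in M0, 181 in M1 (−1.55 [−1.80, −1.31]) and 726 in M2 (−0.05 [−0.20, 0.11]). Of its exon bases, 789 (22.3%) are shared with Tmem198b on the opposite strand, which had 233 to 625 counts. The strand column of the counting is not stated, so reads of the 2 genes may not be separated.

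Markers of neutrophils, which also make Mmp8 and Mmp9, were checked beside these genes. The 12 neutrophil markers summed to between 87.4 and 159.9 CPM in the M0 and M2 libraries, and to 1408 and 1691 CPM in M1 cells without and with regorafenib. Ly6g, Retnlg and Fcnb were at 0 in all libraries, Ngp had at most 1 count, Elane and Ltf at most 2 and S100a9 at most 11. Mpo (myeloperoxidase, also made by early myeloid cells) was at 2064 to 5124 counts and made up most of the sum in M0 and M2. Its log2 ratio of regorafenib to control was 0.95 in M0, 0.05 in M1 and 0.58 in M2, and that of Mmp8 was 0.93, −1.12 and 0.51. Camp had 108 and 91 counts in M1 and at most 1 elsewhere, and Cebpe, at 2 to 73 counts, was called lower with regorafenib in all 3 states. Most of the M1 sum was Lcn2 (32293 and 38099 counts), an acute phase gene that LPS is known to induce in macrophages, and S100a8 was at 1804 counts in M1 control cells and 489 in M1 cells with regorafenib. The part of these genes in the Mmp8 and Mmp9 values was not tested. The 7 osteoclast markers, whose cells are known for Mmp9 and Mmp14, were also summed. Without and with regorafenib, the sums were 94.7 and 159.3 CPM in M0, 74.5 and 78.7 CPM in M1, and 292.6 and 537.9 CPM in M2. Outside M1, Atp6v0d2 and Nfatc1 led these sums. Calcr was at 592 and 355 counts in M1 cells without and with regorafenib and at 0 in the other libraries. Acp5 was highest in M1 (14.2 and 28.8 CPM, against 3.06 to 10.1 elsewhere). Ocstamp (175 and 272 counts) and Dcstamp (340 and 577 counts) were highest in M2. With regorafenib, Atp6v0d2 was called higher in M0, Acp5 in M1, and Acp5, Ocstamp and Dcstamp in M2. No marker of this list was called lower with regorafenib. The 5 dendritic cell markers summed to 32.05 and 38.8 CPM in M1 and to at most 2.54 CPM elsewhere. Most of the M1 sums was Ccr7 (30.2 and 34.3 CPM), and Xcr1 had 36 and 102 counts there. Flt3 had at most 3 counts in any library, Clec9a was at 0 in M1, and Zbtb46 was highest in M2 with regorafenib (59 counts). The part of the osteoclast and dendritic cell lists in the members' values was not tested.

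The inhibitors differed from each other. Timp2, the highest member per kilobase outside M1, was at 13056 counts in M0, 539 in M1 and 43676 in M2 control cells. It was 20.4-fold lower in M1 than in M0 (log2 ratio −4.35 [−4.48, −4.22]) and 2.81-fold higher in M2 (1.49 [1.47, 1.52]). Timp1 was highest in M1, where Timp2 was lowest, with 51 counts in M0, 348 in M1 (8.11-fold higher, 3.02 [2.59, 3.47]) and 86 in M2 (0.50 [−0.01, 1.03]). Timp3, an inhibitor that stays bound to matrix, was at 5, 27 and 3 counts, and its ratio of M1 to M0 (2.68 [1.29, 4.42]) rests on these few counts. Syn3, which shares 1733 (21.3%) of the Timp3 exon bases on the opposite strand, had at most 1 count.

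**Figure D4:**
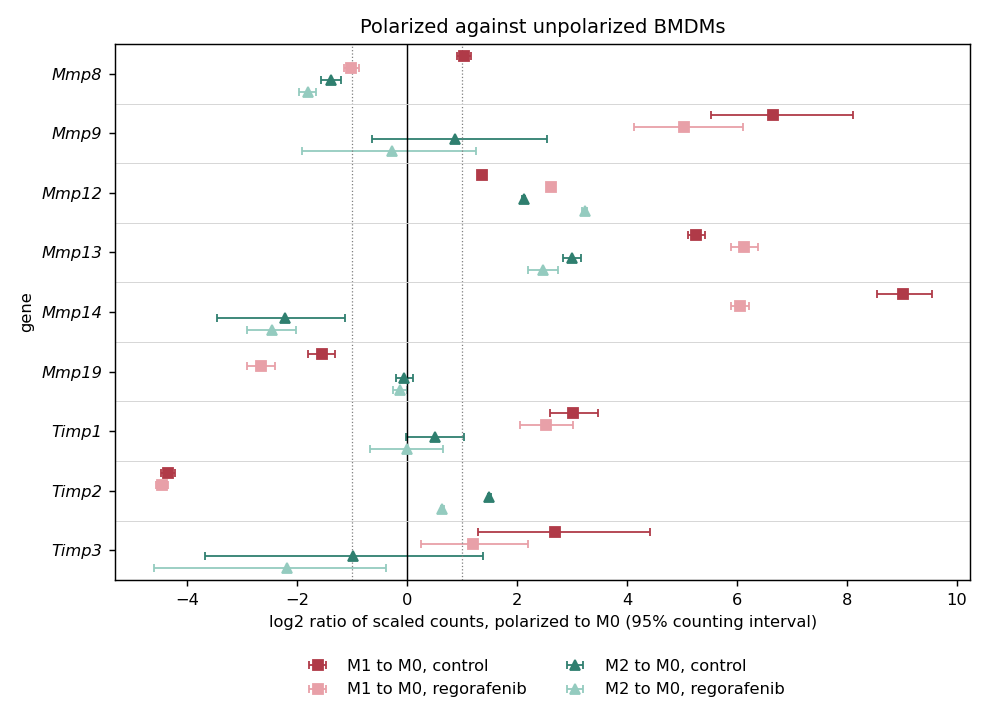
Log2 ratio of scaled counts of M1 (squares) and M2 (triangles) to M0 for each gene, in dark color without and in light color with regorafenib. Bars are 95% counting intervals and dotted lines mark 2-fold. Mmp14, Mmp13 and Mmp9 lie farthest to the right in M1, and Timp2 lies farthest to the left.

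The same comparisons were made among cells with regorafenib. All 9 members were called between M1 and M0 (6 higher and 3 lower, beside 15.8% and 20.2%, or 36.0% in all, of 14159 genes tested), and 5 between M2 and M0 (2 higher and 3 lower of 9 tested, beside 3.89% and 4.06%, or 7.95% in all, of 13841 genes). The members' median log2 ratio was 2.52 in M1 and −0.12 in M2, beside −0.09 and −0.03 over all genes tested. Mmp8 was higher in M1 than in M0 without the drug and lower with it (−1.01 [−1.15, −0.87]). The latter was just past the 2-fold limit and was not called with DESeq2 size factors (−0.94), upper-quartile scaling (−0.97) or 1 CPM added (−0.98). The other 8 members had the same direction in M1 with and without regorafenib. Mmp14 was 66.6-fold and Mmp13 70.2-fold higher in M1 than in M0 with regorafenib. Timp2 in M2 was 1.56-fold higher than in M0 with regorafenib (0.65 [0.62, 0.67]) and was not called, and Mmp12 in M2 was 9.38-fold higher (3.23 [3.19, 3.27]).

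The next comparison asked how regorafenib-treated cells differed from control cells of the same state. In M0, 2 members were called higher and 2 lower of 9 tested, beside 8.27% and 10.2% of the 13964 genes tested (18.5% in either direction). In M1, 0 were called higher and 1 lower of 9, beside 1.27% and 2.47% of 13440 genes (3.74% in either direction). In M2, 1 was called higher and 1 lower of 8, beside 5.23% and 4.11% of 13813 genes (9.34% in either direction). For M0, M1 and M2 in turn, the median log2 ratio of the members tested was 0.64, −0.24 and −0.29, and that of all genes tested was 0.00497, −0.0202 and −0.0305. The intervals of 5 members were above 0 and those of 2 were below 0 in M0. In M1 they were 2 and 5, and in M2 they were 3 and 4.

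Mmp13 was lower with regorafenib in each state. M0 cells had 345 counts without and 139 with the drug, M1 cells 11080 and 7138, and M2 cells 3268 and 652. In CPM these were 11.2 and 4.22, 429 and 296, and 89.5 and 23.3. The log2 ratio was −1.41 [−1.71, −1.13] in M0, −0.53 [−0.58, −0.49] in M1 and −1.94 [−2.07, −1.82] in M2, so that it was called in M0 and M2 and not in M1. Mmp13 with regorafenib was still higher in M2 (23.3 CPM) than in M0 without it (11.2 CPM).

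Mmp12 was lower with regorafenib in each state too, but only the M0 difference was called. M0 cells had 12787 counts without and 5178 with the drug, M1 cells 27787 and 23138, and M2 cells 66151 and 41211. The level was 2.65-fold lower in M0 (log2 ratio −1.41 [−1.45, −1.36]), 1.12-fold lower in M1 (−0.16 [−0.19, −0.14]) and 1.23-fold lower in M2 (−0.30 [−0.32, −0.28]). The M0 differences of Mmp12 and Mmp13 were thus of like size, whereas in M2 Mmp13 differed by 3.84-fold and Mmp12 by 1.23-fold.

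Mmp14 had the opposite direction. Its counts without and with regorafenib were 35 and 323 in M0, 9 and 50 in M2, and 15213 and 15733 in M1. It was 8.6-fold higher in M0 (log2 ratio 3.10 [2.60, 3.65]) and 7.25-fold higher in M2 (2.86 [1.82, 4.07]). In M1, where it was already high, the ratio was 0.15 [0.12, 0.18]. Even with regorafenib, the M0 level (9.80 CPM) stayed far below the M1 levels (589 and 653 CPM). With 1 CPM added to both values, the ratio was 2.34 in M0 and 1.16 in M2. The 8 fibroblast markers, whose cells also express Mmp14 and Timp3, were summed in the same libraries. They were at 10.7 CPM in M0 control cells and 22.3 CPM with regorafenib, at 24.9 and 31.8 CPM in M1, and at 10.02 and 19.4 CPM in M2. Pdgfrb was the largest part of these sums, with 218 and 394 counts in M0. Of the other markers, Lum was at 0 in the M0 and M2 libraries. In M0, Col1a1 (37 and 114 counts, log2 ratio 1.52) and Col1a2 (46 and 188 counts, 1.93) were called higher with regorafenib. Thy1 was called lower there (14 and 4 counts, −1.91). In M1, Dcn was called lower (100 and 39 counts, −1.26), and in M2, Pdgfrb was called higher (229 and 375 counts, 1.10). The part of these markers in the Mmp14 and Timp3 values was not tested.

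Mmp8 differed in direction between the states. It was at 787 counts without and 1610 with regorafenib in M0, and at 358 and 391 in M2, but at 1359 and 584 in M1. The log2 ratio was 0.93 [0.81, 1.06] in M0, 0.51 [0.30, 0.72] in M2 and −1.12 [−1.26, −0.98] in M1, and only the M1 difference was called. With upper-quartile scaling, the M0 difference of Mmp8 (1.01) was called as well. Mmp8 was the 1 called member in M1. Mmp9, at 509 and 240 counts in M1, was lower there by 1.98-fold (−0.98 [−1.21, −0.76]), just under the 2-fold limit. Its 6 to 13 counts in the M0 and M2 libraries gave intervals that held 0, and a difference was not detectable at this depth. Mmp19 was higher in M0 (631 and 1224 counts, 0.85 [0.71, 0.99]) and in M2 (726 and 953 counts, 0.78 [0.64, 0.92]), while its M1 interval held 0. Tmem198b, which shares bases with Mmp19, was at 357 and 625 counts in M0 and at 582 and 529 in M2.

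No inhibitor was called in M1 or M2. Timp1 was at 348 and 189 counts in M1 (log2 ratio −0.78 [−1.04, −0.52]) and at 86 and 38 in M2 (−0.79 [−1.39, −0.23]), and its M0 interval held 0 (51 and 45 counts). Timp2 was higher with regorafenib in M0 (13056 and 20696 counts, 0.56 [0.53, 0.59]) and in M1 (539 and 692 counts, 0.46 [0.30, 0.63]). In M2 it was lower (43676 and 27465 counts, −0.29 [−0.31, −0.26]), with each of these differences below 2-fold. Timp3 was called in M0 on 5 and 16 counts (1.58 [0.06, 3.38]), a call lost with 1 CPM added to both values (0.35). It was at 27 counts in both M1 libraries and at 3 counts in both M2 libraries, for which no fold is given.

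**Figure D5:**
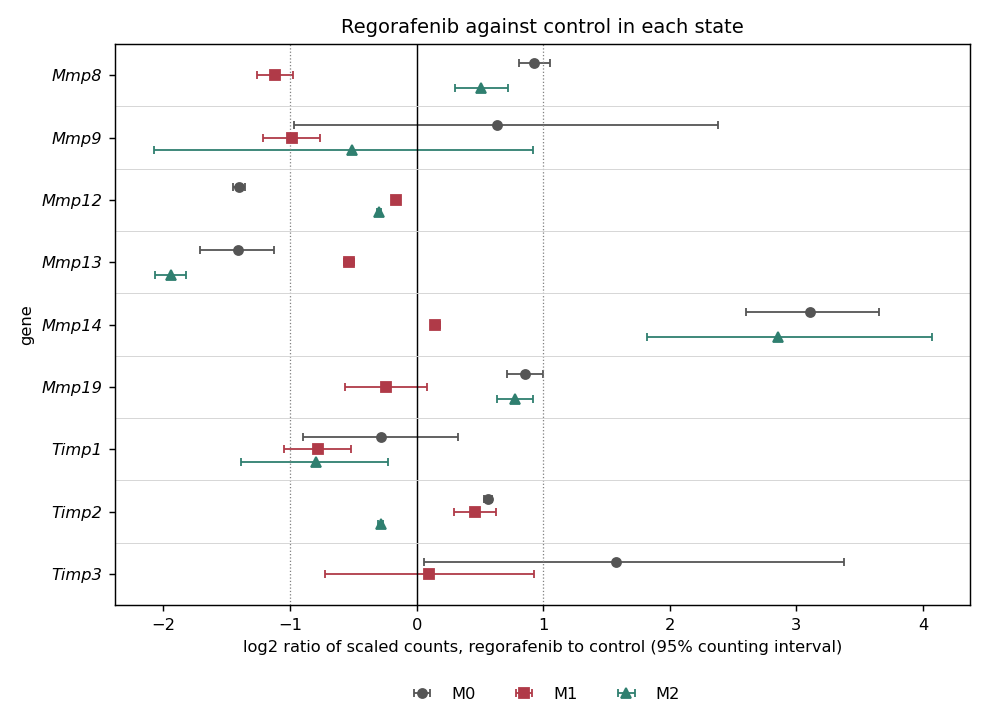
Log2 ratio of regorafenib to control for each gene in M0 (circles), M1 (squares) and M2 (triangles), with 95% counting intervals and dotted lines at 2-fold. Mmp13 and Mmp12 lie left of 0 in all 3 states and Mmp14 lies right of 0 in all 3, while Mmp8 and Timp2 have intervals on both sides.

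Across the 6 libraries, the order of each member had 5 pairs of neighbors, 45 in all, and the counting interval of 13 held 0. All 5 pairs of Mmp12, of Mmp13 and of Timp2 were apart beyond counting error. For Mmp13 the order ran from M1 control to M1 with regorafenib, M2 control, M2 with regorafenib, M0 control and M0 with regorafenib. For Timp2 both M2 libraries came first, then M0 with regorafenib, M0 control and both M1 libraries. Among the 4 lowest libraries of Mmp9, and among the 4 lowest of Timp1, no library differed from the next one down beyond counting error, although M2 control and M2 with regorafenib, which were not neighbors, did for Timp1.

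For a change shared by the 3 states, the quasi-likelihood test of edgeR was fitted to all 6 libraries with state as a block, so that the states stood in for replicates. Of 13365 genes, 0 (0.0%) passed an adjusted p of 0.05, and 1519 had an unadjusted p under 0.05 (11.4%). Of the 9 members, 0 passed. Mmp13 had a log2 ratio of −1.27 (edgeR adjusted p = 0.342) and was lower in 3 of 3 states. Mmp14 had 1.71 and Timp1 had −0.62 (edgeR adjusted p = 0.426 for both), each with the same direction in 3 of 3 states, and these 3 members were those with an unadjusted p under 0.05. The DESeq2 Wald test passed 299 genes, Mmp13 among them (−1.29, adjusted p = 0.00314). Without the M1 pair, edgeR passed 386 genes, among them Mmp13 (−1.67, adjusted p = 0.0435) and Mmp14 (3.02, adjusted p = 0.0401). The test without M1 did not cover Mmp9 and Timp3, which had too few counts.

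Other genes of the Mmp cluster on chromosome 9 gave lower counts. Of the 10 genes, 5 reached 100 counts in a library and 3 had no more than 3 counts in any. Mmp3 (stromelysin 1) had 50 and 71 counts in M1 cells without and with regorafenib, and at most 1 elsewhere. Mmp10 (stromelysin 2) had 123 and 68 counts in M1, 29 and 5 in M2, and 7 and 1 in M0 without and with regorafenib. Of these differences of Mmp10, that in M2 was called (log2 ratio −2.15). Mmp27, the neighbor of Mmp8, was called lower with regorafenib in M1 (109 and 50 counts, log2 ratio −1.02) and in no other state (113 and 136 counts in M0, 120 and 91 in M2). Mmp1b, which shares 157 exon bases with Mmp12 on the opposite strand, had at most 7 counts.

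Other proteases, their regulators and their substrates were read from 6 lists written from general knowledge, whose counts stand beside the shares of all genes called in M0, M1 and M2 (18.5%, 3.74% and 9.34%). Of the 18 other MMPs and Timp4, 4 were tested in M0 (1 called higher and 2 lower with regorafenib), 7 in M1 (1 and 1) and 5 in M2 (0 and 2), with median log2 ratios of −0.46, 0.1 and −0.32. Mmp25, a membrane-type metalloproteinase and the highest of them, had 77 and 21 counts in M0 (log2 ratio −1.98). In M1 it had 291 and 395 counts (0.54) and in M2 it had 31 and 19 (−0.32).

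The list of activation, cell-surface control and clearance held 17 genes, of which 12 were tested in each state. With regorafenib, 1 was called higher and 5 lower in M0, and 0 higher and 1 lower in both M1 and M2, with median log2 ratios of −0.52, 0.04 and −0.21. Lrp1, the endocytic receptor that clears MMP and TIMP complexes, was the highest of them. It was lower in M0 (88835 and 47029 counts, log2 ratio −1.02), in M2 (89326 and 32629, −1.07) and, without being called, in M1 (28104 and 18598, −0.50).

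Of the 12 ADAM genes, 8 were tested in each state, with 2 called higher and 1 lower in both M0 and M2, and 0 higher and 1 lower in M1. Their median log2 ratio was −0.03 in M0, −0.09 in M1 and 0.0034 in M2. Adam8, a membrane sheddase of myeloid cells, was lower in M0 (69434 and 24697 counts, −1.59) and M2 (144645 and 43410, −1.35). Adam19 was higher in M0 (50 and 243 counts, 2.18) and M2 (136 and 251, 1.27). The M1 ratios of the pair were −0.35 and 0.33, and neither was called.

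Of the 18 ADAMTS genes, 4 were tested in M0 (0 higher and 1 lower), 5 in M1 (1 and 0) and 3 in M2 (0 and 1), with medians of 0.70, 0.14 and −0.40. Adamts1, which cleaves versican and aggrecan, was at 475 and 217 counts in M0 (−1.23). In M1 it was at 1849 and 1376 counts (−0.33) and in M2 at 1193 and 231 counts (−1.98). These ratios had the order of those of Mmp13, with M1 closest to 0 and M2 lowest in both genes. Adamts10, the highest of the list, was at 1676 and 3404 counts in M0 (0.92) and was called in no state.

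All 14 cathepsins and cystatins were tested, with 1 called higher and 1 lower in both M0 and M1, and 3 higher and 1 lower in M2. The medians were 0.29, 0.02 and 0.26. Ctsb, the highest and a lysosomal cysteine protease, had log2 ratios of 0.22, 0.01 and 0.06 in M0, M1 and M2. Ctsf was higher in M0 (306 and 1386 counts, 2.08) and M2 (451 and 858, 1.31).

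Of the 20 matrix and substrate genes, 18 were tested in M0 (5 higher and 4 lower), 16 in M1 (0 and 1) and 18 in M2 (1 and 2), with medians of 0.35, −0.32 and −0.10. Fn1 (fibronectin) was higher in M0 (76 and 188 counts, 1.21) and M2 (446 and 779, 1.19). Col18a1 (collagen XVIII) was lower in M0 (13750 and 6727 counts, −1.13) and M2 (10685 and 3729, −1.14). Vcan (versican) was lower in M1 (2954 and 1323 counts, −1.06) and M2 (633 and 198, −1.29). Spp1 (osteopontin), a substrate of several MMPs, was the highest of the list and was called lower in M0 (84530 and 37846 counts, −1.26) only.

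The genes with the most similar pattern were found among 5377 genes that reached 100 counts in a library and spanned at least 2-fold, as Pearson's r of log2(CPM + 1) over the 6 libraries. The libraries share states and treatments, so r is a description and carries no p. For Mmp13 these were Fosl2 (r = 0.998), which encodes a Fos-family subunit of AP-1, then Sertad1 (0.997) and Hsph1 (0.996). Without and with regorafenib, Fosl2 had 1678 and 1383 counts among M0, 6813 and 5067 among M1 and 4804 and 2033 among M2 cells. For Timp2 they were Rps7 (0.999), Tnfsfm13 (0.999) and Acot13 (0.998). Rps7, a ribosomal protein gene, was at 5072 and 5695, 2364 and 2293, and 7376 and 5359 counts. For Mmp14 they were Ctif (0.9998), Nfat5 (0.999) and Zfp653 (0.999), and for Mmp9 they were Tmod3 (0.9997), Rusc2 (0.9995) and Erich2os (0.9995). The ranges of Mmp14, Mmp9 and Timp2 were mostly between M1 and the other states, so that their r rests on the M1 libraries.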

How the data were processed

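RNA-seq of 6 libraries of BMDMs was used. Per the methods of the study and the labels, libraries were made with a stranded mRNA kit, reads (2 × 100 bases) were trimmed with cutadapt 2.4 and mapped to GRCm38 with STAR 2.7.2a, and the authors deposited counts per gene, as STAR gives them on Gencode M19, without normalization. The strand column taken from STAR is not given in the sources used here. Names and positions came from Gencode M21 on GRCm38 (53229 IDs matched with version, 1180 without, 37 unnamed). Counts were scaled with TMM over the 6 libraries (edgeR 4.0.16, R 4.3.3). For pairs of libraries, the study used NOISeq, which simulates replicates. Here a gene was called by the rule of at least 10 counts, 2-fold and a 95% counting interval without 0 (Python 3.11.15, scipy 1.17.1), with a count of 0 set to 0.5 and a floor of 3 counts. Across states, edgeR's quasi-likelihood test was fitted with state as a block, with Benjamini-Hochberg adjustment over all genes kept by filterByExpr, and with DESeq2 1.42.0 as an alternative. The fold rule and the edgeR test were tried on simulated data. The data for the fold rule held counting error only, and those for the edgeR test held an equal drug response in every state. These settings do not cover spread between samples or responses that differ between states. With states standing in for replicates, the p-values across states set the mean drug response against the differences of that response between states. The members and the lists were chosen with earlier results of these data known. Beside the 9 members, genes are named from each list when called in the same direction in at least 2 states with 100 or more counts (at most 3 per list), or when highest in the list. The 3 genes most like each of the 4 members with the widest range are also named, and genes of the Mmp cluster, overlapping genes and cell markers stand beside the members' values. Promoters came from RefSeq (GRCm38.p6) for 7 of 9 members. The check of the M2 state by marker genes is not reported here.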

Additional observations from a re-analysis of the deposited data

Results flagged for a closer look

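Regorafenib-treated and control cells differed in opposite directions between states for 2 members, with counting intervals that left out 0 on both sides. For Mmp8, the log2 ratio in M0 minus that in M1 was 2.05 [1.86, 2.24], and that in M1 minus that in M2 was −1.63 [−1.88, −1.38]. For Timp2, the log2 ratio in M0 minus that in M2 was 0.85 [0.81, 0.89], and that in M1 minus that in M2 was 0.75 [0.58, 0.91]. The brackets cover counting error only, and with 1 library per condition these differences were not tested against the spread between samples.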

How the results depend on the processing

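With 1 library per condition, the absence of replicates limits every comparison of a pair of libraries. Low counts (Mmp9 and Mmp14 outside M1, Timp3 throughout) further limit the ratios of these genes. At a limit of 4-fold, the members called with regorafenib numbered 1 in M0, 0 in M1 and 1 in M2, and those called between M2 and M0 control cells numbered 3. At 1.5-fold, the members called with regorafenib numbered 6 (M0), 3 (M1) and 4 (M2). With upper-quartile scaling 5 were called in M0, where Mmp8 passed 2-fold, and 2 in M1, where Mmp9 did. With 1 CPM added, none of the 5 Timp3 calls remained (log2 ratios of −0.42 to 0.92). Across states, 1 member (Mmp13) passed with DESeq2 and 1 with edgeR without a filter on low counts (adjusted p = 0.0114), and between 0 and 2 passed when 1 state was left out (2 without M1). Fits of edgeR with total counts, without the state block, or without M0 or M2 passed 0 members. The Mmp8 ratio across states, 0.14, was −0.026 without the state block and ranged from −0.30 to 0.75 with 1 state left out (−0.08 without M2). Of the 288 values of the 72 member ratios under 3 other scalings and with 1 CPM added, 54 moved beyond their counting interval. The sign changed in 3, for Mmp19 between M2 and M0 control cells and Timp1 between M2 and M0 with regorafenib, whose values were all near 0. Upper-quartile scaling shifted every ratio of M1 to M0 control cells by 0.14. Over all genes, the share called with regorafenib was 18.5% in M0, 3.74% in M1 and 9.34% in M2. It was 10.7%, 1.15% and 4.09% with 1 CPM added, 33.8%, 8.09% and 20.1% at 1.5-fold, and 5.23%, 0.893% and 2.43% at 4-fold. Between states without the drug, 35.4% (M1 to M0), 10.8% (M2 to M0) and 36.0% (M1 to M2) of genes were called, and 18.6%, 2.97% and 19.6% at 4-fold. The test across states passed 0 genes with edgeR, 299 with DESeq2, 333 without the filter and 386 without M1.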
